A study of Mus musculus with 4 samples.

Results

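Secreted signals of T cells were followed here through every cell of 4 tumour libraries: the chemokine genes Ccl3, Ccl4, Ccl5 and Xcl1, which are 4 of the 13518 genes in the deposited table of 13213 cells. The genes were chosen by name. C57BL/6 mice carried orthotopically implanted tumours derived from MC38, a mouse colon adenocarcinoma cell line. The vehicle arm is the control (its own sample entry reads "No treatment"), the ATT-I arm received atractylenolide I at 50 mg/kg daily, the anti-PD-1 arm received an antibody against the T cell checkpoint receptor PD-1 3 times a week for 5 doses in total, and the combination arm received both agents. The 5 tumours of an arm, taken 2 weeks after treatment began, were pooled into 1 droplet library, so no arm has a replicate. Differences between arms are therefore differences between 4 libraries, and no p-value was computed. The intervals below are exact 95% intervals of the summed counts, scaled to the printed mean or ratio, and cover counting error only. The labels give neither the age nor the sex of the mice and name no sorting step.

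Chemokines are small secreted proteins that draw cells bearing the matching receptor along a gradient. Ccl3 and Ccl4 (MIP-1 alpha and MIP-1 beta) are neighbouring genes that T cells and NK cells switch on quickly after activation. Ccl5 (RANTES) is a gene whose RNA memory and effector CD8 T cells hold at rest. Xcl1 (lymphotactin), made by NK cells and activated CD8 T cells, acts on Xcr1, the receptor of cross-presenting dendritic cells. The first 3 are CC chemokines, named for a pair of adjacent cysteines near the start of the mature protein, and Xcl1 is a C chemokine, which has 1 cysteine there.

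That difference can be read from the transcripts. In the GENCODE vM21 annotation (GRCm38), Ccl5 lies at chr11:83525778-83530518 on the minus strand, Ccl3 at chr11:83647844-83649355 on the minus strand and Ccl4 at chr11:83662584-83664683 on the plus strand, so Ccl3 and Ccl4 are transcribed away from each other with 13228 bases between them. Xcl1 lies alone at chr1:164931644-164935527 on the minus strand. Each gene has 3 exons. The coding stretches around the first cysteines are shown because they define the family to which each gene belongs, with the cysteine codons in capitals:
Ccl3 (codons 27 to 42): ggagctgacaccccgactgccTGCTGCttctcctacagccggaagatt
Ccl4 (codons 27 to 42): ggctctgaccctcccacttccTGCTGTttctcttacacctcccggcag
Ccl5 (codons 26 to 41): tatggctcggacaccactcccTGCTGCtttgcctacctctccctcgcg
Xcl1 (codons 25 to 39): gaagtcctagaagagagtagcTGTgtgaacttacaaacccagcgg
Codons are counted from the start codon. Ccl3, Ccl4 and Ccl5 hold adjacent cysteine codons, and Xcl1 holds a single one. The longest stretch that any pair of the 4 transcripts shares is 13 bases, so the genes differ over almost any short read.

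Upstream sequence was found for Ccl3 and Xcl1 in the RefSeq table (GRCm38.p6) and was not found for Ccl4 and Ccl5. The 250 bases before the start site are shown for these genes because they sat at opposite ends of the range in cells with Ncr1 and no Cd3e, with GGAAA, the core letters of NFAT sites, in capitals on either strand:
Ccl3, chr11:83649379-83649628, minus strand: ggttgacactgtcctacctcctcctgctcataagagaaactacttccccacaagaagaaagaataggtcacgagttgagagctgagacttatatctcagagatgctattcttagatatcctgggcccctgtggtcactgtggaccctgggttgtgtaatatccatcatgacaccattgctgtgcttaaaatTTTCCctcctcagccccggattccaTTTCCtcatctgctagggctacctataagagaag
Xcl1, chr1:164935523-164935772, minus strand: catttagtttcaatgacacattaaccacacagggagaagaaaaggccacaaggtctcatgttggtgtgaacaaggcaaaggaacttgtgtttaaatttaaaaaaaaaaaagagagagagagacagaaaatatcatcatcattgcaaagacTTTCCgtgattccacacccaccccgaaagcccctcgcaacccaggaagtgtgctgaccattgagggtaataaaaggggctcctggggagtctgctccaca
Both are read 5′ to 3′ towards the gene. The GGAAA letters appear as TTTCC at 59 and 34 bases before the RefSeq start of Ccl3 and at 100 bases before that of Xcl1. These start sites do not coincide with the gene starts in the GENCODE positions given above. Of 32851 mouse promoters of this length, 55.6% hold GGAAA on one strand or the other, so its presence is common. TGANTCA (AP-1 sites), TGACG (CREB sites) and TATAAA, searched on both strands, were not in either window, and they occur in 6.75%, 17.8% and 12.4% of all promoters.

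Levels are given as UMIs (unique molecular identifiers, each standing for 1 captured RNA molecule) per 10000 UMIs of a cell, averaged over cells. The libraries differed greatly in size and depth. Vehicle had 155 cells, ATT-I 297, the combination 199 and anti-PD-1 12562, with medians of 16118, 6826, 23910 and 7146.5 UMIs per cell, and 1 cell barcode occurred in 2 libraries. Cells were placed by their own UMIs in exclusive gates: Foxp3 (the regulatory T cell factor), Ncr1 (an NK cell receptor) with or without Cd3e, CD8 (Cd8a plus Cd8b1) and CD4. The CD8 gate held 48, 107, 118 and 8199 cells in the same order, and 89.6%, 39.3%, 90.7% and 34.8% of them had an Mki67 UMI, a sign of cell division. In every gate other than Ncr1 without Cd3e, 83.6% to 100% of cells had a Cd3e UMI. The summed level of 5 T cell markers was 33.6 in vehicle, 39.9 in ATT-I, 36.2 in the combination and 55.2 in anti-PD-1, the library with the most Ccl5. The red cell list stood at 28.5 in ATT-I, against 0.0759 in vehicle, 0.0284 in the combination and 0.868 in anti-PD-1. The part of either list in the chemokine levels was not tested. The summed level of the 5 measured monocyte or macrophage markers was 0.0567 to 0.330, and that of the dendritic markers was 0.0712 to 0.184, with Flt3 at 0 in 3 libraries. The gates are not pure: in the anti-PD-1 library 51.7% of Foxp3-gate cells had a Cd8a UMI, against 11.1% in vehicle. In anti-PD-1 so did 36.6% of Ncr1 cells without Cd3e and 57.9% of those with it.

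Ccl3 and Ccl4 were lowest in vehicle and highest in the combination, Ccl5 was highest with anti-PD-1 alone and lowest in the combination, and Xcl1 varied least. Over all cells, Ccl3 averaged 0.832 UMIs per 10000 in vehicle (0.754 to 0.916), 1.85 in ATT-I (1.70 to 2.01), 3.28 in anti-PD-1 (3.25 to 3.31) and 4.12 in the combination (3.93 to 4.32). Ccl4 followed the same order at 1.33 (1.23 to 1.43), 3.50 (3.28 to 3.73), 9.93 (9.87 to 9.99) and 13.3 (12.9 to 13.7). For both genes no pair of neighbouring intervals overlapped, but a few cells set the combination values, as described further on.

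Ccl5 gave the most UMIs of the 4 in every library, on a scale that is not corrected for transcript length. Its mean level was 15.0 in vehicle (14.5 to 15.5), 27.5 in ATT-I (26.7 to 28.2), 49.8 in anti-PD-1 (49.7 to 50.0) and 13.0 in the combination (12.7 to 13.4). In the combination it stood beside Ccl4, with 5111 Ccl5 and 4529 Ccl4 UMIs, whereas the anti-PD-1 library held 461606 and 108749. Xcl1 averaged 3.27 in anti-PD-1 (3.23 to 3.30), 3.64 in ATT-I (3.45 to 3.83), 3.92 in vehicle (3.72 to 4.12) and 6.74 in the combination (6.53 to 6.96). The ATT-I and vehicle intervals of Xcl1 overlapped, and the other neighbours in that order did not.

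**Figure D1:**
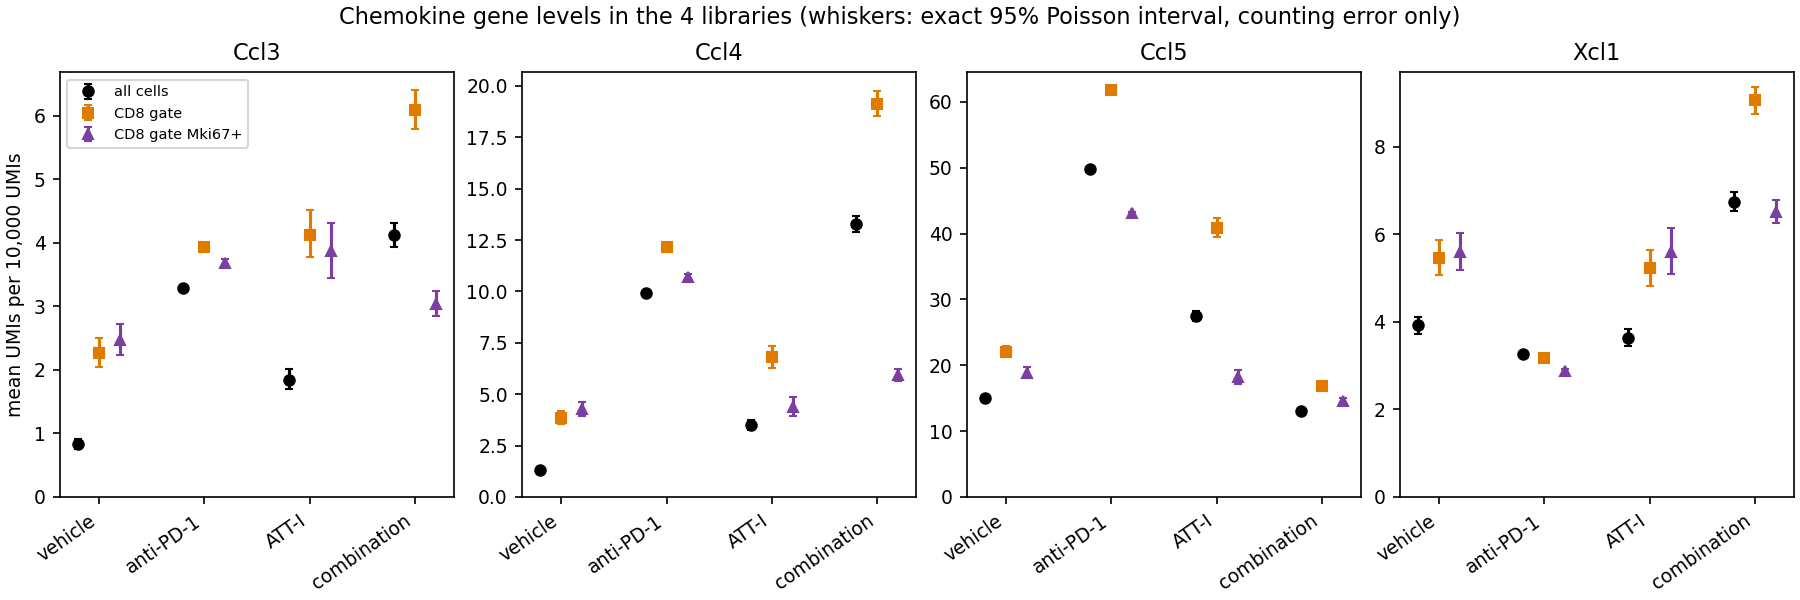
Mean UMIs per 10000 of each chemokine by library, over all cells, over the CD8 gate and over Mki67+ cells of the CD8 gate. Whiskers are exact 95% Poisson intervals of the summed UMIs, scaled to the mean. Over all cells Ccl5 is highest in anti-PD-1 at 49.8, while Ccl4 is highest in the combination at 13.3 and sits at 5.92 in its Mki67+ CD8-gate cells. The 2 richest Ccl4 cells of the combination, which held 61.2% of its Ccl4 level, are Mki67-.

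For Ccl4, a threshold per cell gave another order than the mean. Cells with at least 10 Ccl4 UMIs per 10000 made up 3.87% of vehicle, 4.38% of ATT-I, 9.05% of combination and 19.7% of anti-PD-1 cells. For Ccl3 the shares were 2.58%, 3.37%, 6.03% and 7.10% in the same order. By this measure anti-PD-1 stood above the combination for Ccl4, although its mean level was lower. For Ccl3 these 2 libraries could not be ordered. The exact 95% interval of the share of cells was 3.15% to 10.3% in the combination and 6.66% to 7.56% in anti-PD-1. Ccl5 passed the threshold in 71.4% of anti-PD-1 cells and in 30.7% to 45.1% of the cells of the other libraries. Xcl1 passed it in 7.48% of anti-PD-1, 9.09% of ATT-I, 12.3% of vehicle and 13.6% of combination cells.

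Detection was compared after each cell was thinned to 3000 UMIs. In the CD8 gate, Ccl4 was then found in 27.7% of vehicle, 26.0% of ATT-I, 39.3% of combination and 60.1% of anti-PD-1 cells, against 58.3%, 43.0%, 70.3% and 78.9% before thinning. The CD4 gate, where the gene was scarcer, gave 1.85%, 3.41%, 17.5% and 30.0% after thinning and 12.7%, 6.52%, 22.5% and 44.6% before. Median depths were 24502, 9095, 28410 and 7796 UMIs in the CD8 gate and 7673, 5567, 12422 and 5508 in the CD4 gate. The wider spread of Ccl4 among anti-PD-1 cells therefore remained at equal depth. Ccl5 in the thinned CD8 gate was found in 85.1%, 79.8%, 64.1% and 95.7% of cells in the same order of libraries, so the combination had the lowest share as well as the lowest mean.

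In ratios over all cells, all 4 genes passed the filter of a UMI in 10% of the cells of either library in each of the 5 comparisons. Anti-PD-1 against vehicle put 3 of the 4 genes at least 2-fold higher and 0 at least 2-fold lower, where 1.17% and 17.5% of all 8475 genes met those limits. The log2 ratio was 2.90 for Ccl4 (2.80 to 3.02), 1.98 for Ccl3 (1.84 to 2.12), 1.74 for Ccl5 (1.69 to 1.78) and -0.26 for Xcl1 (-0.34 to -0.19). With UMIs summed over cells instead of averaged per cell, Ccl4 stood at 2.18 and Ccl3 at 1.37, and Ccl3 stood at 2.58 without the richest 1% of cells. By the averaged levels, Ccl4 ranked 3, Ccl3 ranked 7 and Ccl5 ranked 15 from the top. The median over all genes was -0.34, which lies beside the lower depth of the anti-PD-1 library. Xcl1 was thus close to the median gene.

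ATT-I against vehicle put 2 of the 4 at least 2-fold higher and 0 lower, where 0.99% and 15.8% of genes were. Its log2 ratios were 1.40 for Ccl4 (1.26 to 1.55), 1.15 for Ccl3 (0.96 to 1.34), 0.88 for Ccl5 (0.81 to 0.94) and -0.11 for Xcl1 (-0.21 to 0.00). With summed UMIs, the ratios of Ccl4 and Ccl3 were 0.55 and 0.54, so neither was called.

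The combination against vehicle put 2 of the 4 at least 2-fold higher and 0 lower, where 1.29% and 4.99% of genes were. Ccl4 was 3.33 higher on the log2 scale (3.21 to 3.44) and Ccl3 2.31 higher (2.15 to 2.47). Without the richest 1% of cells of each library, chosen for each gene, the Ccl4 ratio was 2.60, and with summed UMIs it was 1.97 and that of Ccl3 1.34. Xcl1 stood at 0.78 (0.70 to 0.87) and Ccl5 at -0.20 (-0.26 to -0.14), both inside 2-fold. These 3 comparisons share the vehicle library of 155 cells.

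Adding ATT-I to anti-PD-1 went with less Ccl5, while the Xcl1 ratio lay at the 2-fold limit. Against anti-PD-1 alone, 1 of the 4 was at least 2-fold higher and 1 at least 2-fold lower in the combination, where 10.7% and 1.74% of genes were. Ccl5 had a log2 ratio of -1.94 (-1.98 to -1.90), at place 8592 of 8603 genes, in a comparison whose median gene stood at 0.19. Xcl1 stood at 1.05 (0.997 to 1.09), at place 823 of 8603 genes. Over the alternatives it stood at 0.86 to 1.18, so it was not called in all of them. The lowest value was without the single richest cell of each library. The ratios of Ccl3 and Ccl4 were 0.33 (0.26 to 0.40) and 0.42 (0.38 to 0.46), and they were -0.08 and -0.16 without that cell. The richest cell held 26.3% of Ccl3 and 34.1% of Ccl4 in the combination, but 1.39% and 1.19% in anti-PD-1. Leaving it out thus had to lower these ratios. The direction of Ccl3 and Ccl4 between these arms rested on single cells of the combination.

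Against ATT-I alone, the combination had 2 of the 4 at least 2-fold higher and 1 at least 2-fold lower, where 11.5% and 1.93% of genes were. Ccl4 stood at 1.92 (1.82 to 2.03) and Ccl3 at 1.16 (1.02 to 1.30). With summed UMIs the Ccl3 ratio was 0.80. Ccl5 stood at -1.08 (-1.13 to -1.02), or -0.86 without the deepest cells, in which single UMIs are lost, and Xcl1 at 0.89 (0.80 to 0.98). Ccl5 was thus lower in the combination than in either single-agent library.

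Within the CD8 gate, which removes the difference in the share of CD8 cells, the directions were those over all cells and the sizes of the Ccl3 and Ccl4 ratios to vehicle were smaller. Ccl3 averaged 2.26 in vehicle, 4.13 in ATT-I, 6.09 in the combination and 3.93 in anti-PD-1. Ccl4 averaged 3.87, 6.80, 19.1 and 12.2 in that order. Ccl5 averaged 22.1, 40.9, 16.8 and 61.8, so its order matched the one over all cells. Xcl1 averaged 5.46, 5.22, 9.06 and 3.17, and was lowest in anti-PD-1.

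Anti-PD-1 against vehicle in the CD8 gate had 2 of the 4 at least 2-fold higher and 0 lower, where 2.7% and 20.3% of genes were. They were Ccl4 at 1.66 (1.55 to 1.77) and Ccl5 at 1.49 (1.43 to 1.54). Ccl3 stood at 0.80 (0.65 to 0.95) and Xcl1 at -0.78 (-0.89 to -0.68) beside a median gene at -0.35. Without the single richest cell of each library, Ccl3 stood at 1.49. That cell held 40.1% of the Ccl3 level of 48 vehicle cells and 0.858% of that of 8199 anti-PD-1 cells. Leaving it out thus had to raise the ratio. The combination against vehicle also had 2 of 4 higher and 0 lower (2.59% and 9.08% of genes), namely Ccl4 at 2.31 and Ccl3 at 1.43, which were 1.06 and 0.43 with summed UMIs. ATT-I against vehicle had 0 of 4 in either direction (2.81% and 22.4% of genes), with Ccl3, Ccl4 and Ccl5 at 0.87, 0.81 and 0.89. That count was 1 or 2 under 6 alternatives, as on the deposited values, where Ccl3 stood at 1.06 and Ccl5 at 1.04, while with summed UMIs Ccl4 stood at -0.04 and Ccl3 at 0.28. Against anti-PD-1, the combination had Xcl1 higher at 1.51 and Ccl5 lower at -1.88, which makes 1 of 4 each way (12.1% and 2.73% of genes). Against ATT-I it had Ccl4 higher at 1.49 and Ccl5 lower at -1.28, again 1 of 4 each way (14.6% and 3.54% of genes).

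The CD8 gates also differed in dividing cells, so the ratios were taken over Mki67+ cells alone. There Ccl3 was 2.47 in vehicle, 3.87 in ATT-I, 3.04 in the combination and 3.69 in anti-PD-1. Ccl4 was 4.28, 4.38, 5.92 and 10.7 in that order, so anti-PD-1 and not the combination had the highest level. Ccl5 was 18.9, 18.2, 14.5 and 43.1, and Xcl1 was 5.59, 5.60, 6.51 and 2.87. The 2 richest Ccl4 cells of the combination gate were Mki67-, so they drop out here. They held 71.6% of the Ccl4 level of its 118 cells. Without those 2 cells alone, Ccl4 averaged 5.52 in the whole gate. In the ATT-I library 1 of the 42 Mki67+ cells held 65.9% of the Ccl3, 54.3% of the Ccl4 and 70.7% of the Xcl1 level, and without it the means were 1.35, 2.05 and 1.68. Single cells also weighed in vehicle and the combination. Without the richest of the 43 vehicle cells for each gene, these means were 1.49, 3.38 and 3.67. Without the richest of the 107 combination cells for each gene, they were 2.28, 4.01 and 4.85.

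Among Mki67+ CD8-gate cells, anti-PD-1 against vehicle kept Ccl4 at 1.32 (1.21 to 1.44) and Ccl5 at 1.19 (1.13 to 1.25), which makes 2 of 4 at least 2-fold higher where 2.98% of genes were, and 0 lower where 19.2% were. The combination against vehicle had 0 of 4 in either direction (2.46% and 9.56% of genes), with Ccl4 at 0.47 (0.34 to 0.60) and Ccl3 at 0.30 (0.13 to 0.48). ATT-I against vehicle likewise had 0 of 4 (4.08% and 19.5% of genes). Xcl1 remained higher in the combination than in anti-PD-1 at 1.18 (1.12 to 1.24) and Ccl5 lower at -1.57 (-1.62 to -1.52), where 8.27% and 2.4% of genes passed these limits. Against ATT-I, 0 of 4 passed in either direction (10.5% and 5.59% of genes). Mki67- cells could not be compared, since the gate held 5 of them in vehicle and 11 in the combination.

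**Figure D2:**
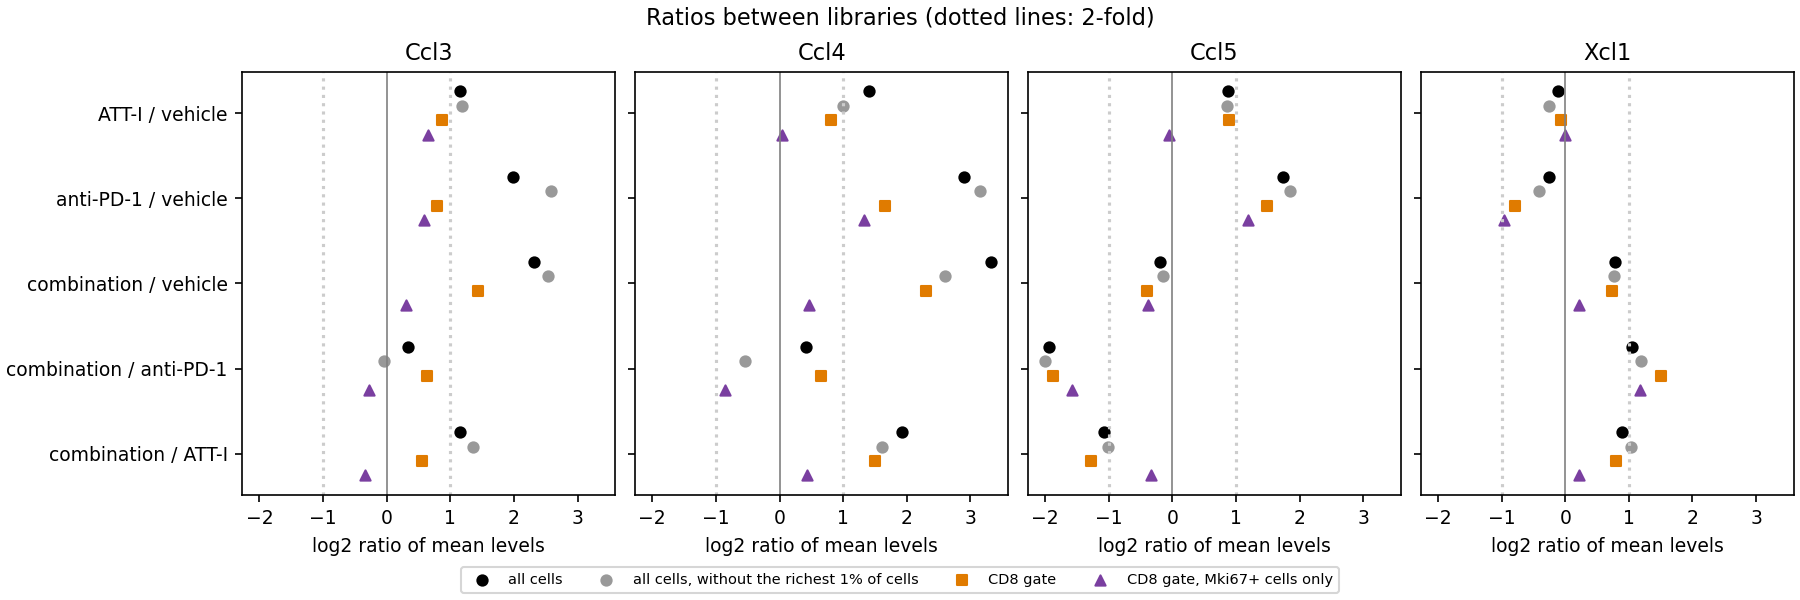
Log2 ratios of mean UMIs per 10000 for the 4 chemokines in the 5 comparisons of libraries, over all cells, without the richest 1% of cells, in the CD8 gate and in its Mki67+ cells. The Ccl4 ratio of combination to vehicle moves from 3.33 over all cells to 0.47 in Mki67+ CD8-gate cells, while the Ccl5 ratio of combination to anti-PD-1 is -1.94 over all cells and -1.57 in Mki67+ CD8-gate cells. The Mki67+ cells leave out 2 Mki67- cells that held 71.6% of the Ccl4 level in the combination CD8 gate.

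Division and Ccl5 went apart within the CD8 gates of anti-PD-1 and ATT-I as well. In the anti-PD-1 CD8 gate Ccl5 averaged 71.8 in 5346 Mki67- cells (71.6 to 72.1) and 43.1 in 2853 Mki67+ cells (42.9 to 43.3). In the ATT-I CD8 gate it averaged 55.6 and 18.2. Ccl3 differed less by division in anti-PD-1, at 4.06 without and 3.69 with Mki67, as did Ccl4 at 13.0 and 10.7 and Xcl1 at 3.33 and 2.87. The median depth of the anti-PD-1 CD8-gate cells was 11411 UMIs with and 6822.5 without Mki67, and the part of depth in these differences was not tested. The CD4 gates varied. There Ccl5 averaged 15.7 without and 13.8 with Mki67 in anti-PD-1, and 24.3 and 7.31 in vehicle. In the combination, the 21 Mki67- cells averaged 3.85 against 5.88 in the whole CD4 gate, which is the other direction.

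Most of the Ccl3 and Ccl4 RNA lay in very few cells. In vehicle 2 of 155 cells held 50% of the summed Ccl3 level, in ATT-I 3 of 297, in the combination 3 of 199 and in anti-PD-1 347 of 12562, which is 2.76%. For Ccl4 the numbers were 3, 3, 2 and 563 cells in the same order. Xcl1 was similar, at 7 vehicle, 8 ATT-I, 7 combination and 338 anti-PD-1 cells. Ccl5 was spread over more cells, at 12, 28, 18 and 1879.

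The richest 5% of cells held 87.3% of Ccl3 in vehicle, 90.3% in ATT-I, 80.1% in the combination and 62.9% in anti-PD-1. They held 77.3%, 87.1%, 86.9% and 52.4% of Ccl4, and 57.8%, 67.3%, 64.2% and 63.6% of Xcl1. For Ccl5 the values were 40.1%, 36.2%, 35.1% and 24.6%. B2m, a gene of all nucleated cells, gave 9.54% to 10.5% across libraries, the T cell gene Cd3e 10.7% to 13.6%, and the cytokine gene Ifng 42.1% to 55.4%. Gzma, a granzyme gene, was more concentrated than any of the 4 chemokines, at 86.3% to 95.8%. Among genes with a mean of at least 1 UMI per 10000, of which each library had 1224 to 1604, the median share was 15.4% to 20.7%. Between 2 and 9 of those genes exceeded Ccl3 and between 3 and 12 exceeded Ccl4, whereas 37 to 202 exceeded Ccl5.

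**Figure D3:**
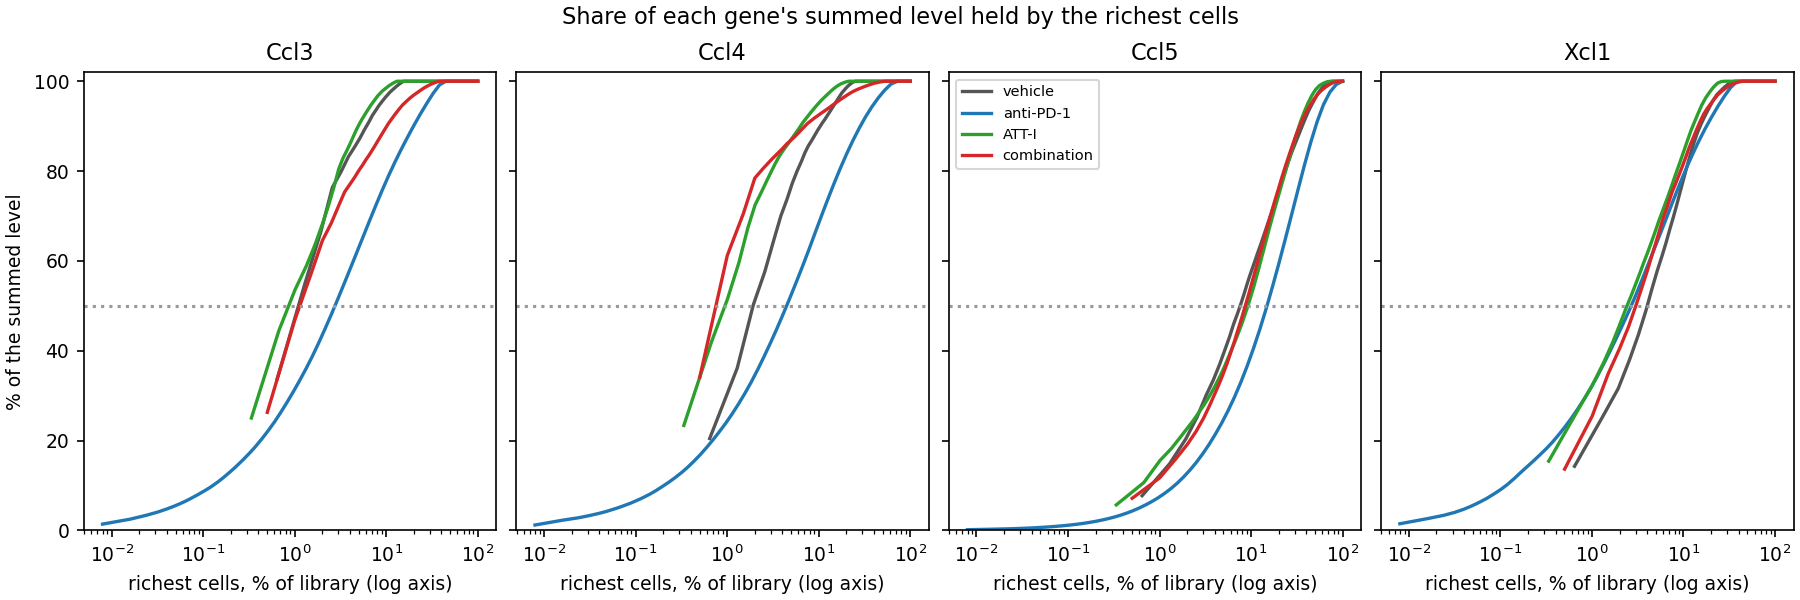
Cumulative percent of each chemokine's summed level against the percent of cells, taken from the richest down, on a log axis, by library, with a dotted line at 50%. The Ccl3 curve of vehicle is past the line by 1.29% of cells and that of anti-PD-1 by 2.76%, while the Ccl5 curves need 7.74% to 15.0%.

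Single cells could be read off in the small libraries. In the combination, the richest Ccl4 cell had 1195 Ccl4 UMIs among 13259, or 901 per 10000, and the next had 1238 among 17267, or 717 per 10000. Both were Mki67- cells of the CD8 gate, both were the leading Ccl3 cells too, at 169 and 215 per 10000, and both were shallower than the gate's median cell. They held 61.2% of the library's Ccl4. Without them its Ccl4 mean was 5.21 over all cells and 5.52 in the CD8 gate, against 13.3 and 19.1 with them. The third was a Foxp3-gate cell at 247 per 10000 with no Ccl3, and the fourth a CD8-gate cell at 209 that was also the richest in Xcl1, at 183.

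Vehicle and ATT-I also had single rich cells, with less Ccl3 and Ccl4 than the leading cells of the combination. These cells were not all Mki67-. In vehicle, 1 CD8-gate cell was first for Ccl3, at 43.5 per 10000, and for Xcl1, at 86.6, and second for Ccl4, at 32.2, yet had 2.93 of Ccl5. That cell had 2 Mki67 UMIs. It held 33.7% of the library's Ccl3 level and 14.3% of its Xcl1. In ATT-I, a CD8-gate cell of 3061 UMIs had 137 of Ccl3, 193 of Ccl4 and 405 of Ccl5 per 10000. Another ATT-I cell of that gate had 107 of Ccl3, 100 of Ccl4 and 166 of Xcl1, with 3 Mki67 UMIs. A CD4-gate cell at 243 was the richest in Ccl4 there and made up 94.8% of that gate's Ccl4 level.

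In the large anti-PD-1 library no cell weighed as much. Its richest cell held 1.39% of Ccl3, 1.19% of Ccl4, 0.138% of Ccl5 and 1.46% of Xcl1. The 4 richest Ccl3 cells, at 571, 453, 356 and 295 per 10000, were all in the CD4 gate, each with 1 Mki67 UMI. The richest Ccl4 cells stood at 1479 and 1331 per 10000, the richest Ccl5 cell at 867 and the richest Xcl1 cell at 601. The summed level of macrophage markers was 0 to 3.07 per 10000 in the leading Ccl3 and Ccl4 cells of all libraries.

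**Figure D4:**
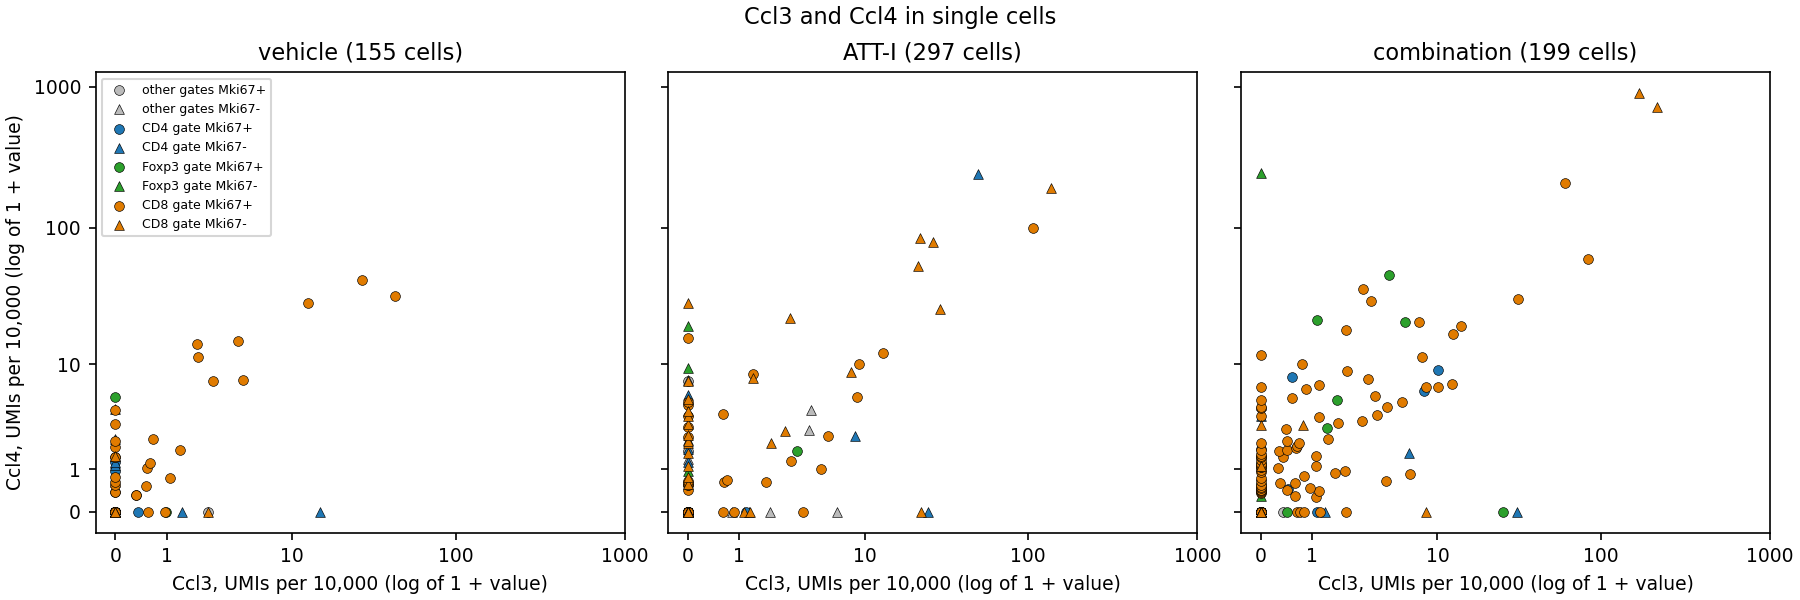
Ccl3 against Ccl4 UMIs per 10000 in each cell of the vehicle, ATT-I and combination libraries, coloured by gate, with circles for Mki67+ and triangles for Mki67- cells. Cells high in one gene are mostly high in the other, and the 2 highest Ccl4 cells of the combination, at 901 and 717, are Mki67- CD8-gate cells.

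Ccl3 and Ccl4 shared their rich cells, and Xcl1 did so much less. Of the richest 5% of cells for Ccl3, 6 of 8 in vehicle, 10 of 15 in ATT-I, 5 of 10 in the combination and 373 of 628 in anti-PD-1 were also in the richest 5% for Ccl4. Ccl4 and Xcl1 shared 1, 3, 2 and 53 cells in the same order, Ccl4 and Ccl5 shared 1, 3, 3 and 43, and Ccl5 and Xcl1 shared 0, 1, 2 and 13. Across the 8199 CD8-gate cells of anti-PD-1, which share a library and vary in depth, Pearson's r of the log levels was 0.62 for Ccl3 with Ccl4, 0.25 for Ccl4 with Ccl5, 0.15 for Ccl3 with Ccl5, -0.02 for Ccl3 with Xcl1, -0.05 for Ccl4 with Xcl1 and -0.13 for Ccl5 with Xcl1. The Ccl3 and Ccl4 value was 0.53 after thinning. In the smaller CD8 gates it was 0.83 in vehicle (48 cells), 0.74 in ATT-I (107 cells) and 0.81 in the combination (118 cells).

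The genes whose levels went most closely with each chemokine over those 8199 cells overlapped between Ccl3 and Ccl4, which shared Nr4a2, Ifng and Rgs16, while Nkg7 was listed for both Ccl4 and Ccl5 and the 5 genes of Xcl1 were on no other list. For Ccl3 they were Ccl4, Nr4a2 (0.34), Ifng (0.28), Rgs16 (0.27) and Lag3 (0.25). For Ccl4 they were Ccl3, Nr4a2 (0.36), Ifng (0.33), Nkg7 (0.32) and Rgs16 (0.29). Nr4a2 is switched on soon after the T cell receptor is engaged, Ifng encodes interferon gamma and Lag3 an inhibitory receptor. For Ccl5 they were Nkg7 (0.41), a granule protein gene, Malat1 (0.38), Hcst (0.35), Fau (0.32) and Rps27 (0.31), of which Fau and Rps27 encode ribosomal proteins. For Xcl1 they were the receptor genes Klra6 (0.35), Cd160 (0.29), Klra7 (0.28), Crtam (0.23) and Klra1 (0.23). The Klra genes are related members of the same family, and how reads were divided among them is not given in the sources used here. Not all these pairs went together in the smaller CD8 gates. In vehicle, ATT-I and the combination, Ccl3 gave 0.30, 0.51 and 0.22 with Nr4a2 and 0.07, 0.34 and 0.30 with Ifng. With Lag3 it gave 0.31, 0.35 and 0.05, and Ccl5 gave -0.01, 0.02 and 0.20 with Rps27.

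The rich cells of the anti-PD-1 library were also set against its other cells, as a description. These cells overlap those that gave the correlations, so the values of Nr4a2, Ifng and Crtam are not independent of them. The 628 richest Ccl3 cells had Ifng at 14.1 against 2.35 per 10000, Nr4a2 at 4.72 against 1.42 and Il2 at 0.826 against 0.125. Their macrophage marker sum was 0.310 against 0.331 and their Mki67+ share 32.8% against 32.2%. The 628 richest Ccl5 cells had Ifng at 2.65 against 2.96, Gzma at 8.52 against 1.72, Gzmk at 2.74 against 0.915 and an Mki67+ share of 14.3% against 33.2%. Those richest in Xcl1 had Crtam at 1.10 against 0.180, Gzmk at 0.239 against 1.05 and an NK marker sum of 9.89 against 3.71, and 83 of them were in the Ncr1 gates. Their dendritic marker sum was 0.219 against 0.0634, and its part in the Xcl1 values was not tested. In the small libraries, too, Ccl3-rich cells had more Nr4a2, at 3.59 against 1.21 in vehicle (8 cells), 6.15 against 0.782 in ATT-I (15 cells) and 5.94 against 3.61 in the combination (10 cells).

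By gate, the CC chemokines were highest in CD8 cells and Xcl1 in cells with Ncr1. In the anti-PD-1 library, the one with enough cells in 5 gates, Xcl1 averaged 20.1 in the 41 Ncr1 cells without Cd3e (18.9 to 21.3) and 17.1 in the 197 with Cd3e (16.6 to 17.7), against 3.17 in the CD8 gate (3.13 to 3.21), 1.49 in the CD4 gate (1.42 to 1.56) and 1.08 in the Foxp3 gate (1.04 to 1.13). Xcl1 UMIs were found in 78.0% and 79.7% of the Ncr1 cells without and with Cd3e, 40.4% of CD8-gate, 27.2% of CD4-gate and 26.8% of Foxp3-gate cells, whose median depths were 11672, 9006, 7796, 5508 and 6777.5 UMIs. At 3000 UMIs per cell the shares were 77.5%, 69.5%, 25.8%, 17.3% and 16.6%. No gate free of Xcl1-bearing cell types was available as a background, since many Foxp3-gate cells also held Cd8a. Cells in none of the gates, 8.58% of the anti-PD-1 library, averaged 6.52 (6.35 to 6.69) and held 17.1% of its Xcl1 level, and in ATT-I such cells were 20.5% of the library and held 32.1%. In vehicle, the 17 Ncr1 cells without Cd3e made up 11.0% of cells and held 34.2% of the Xcl1 level.

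Ccl5 had another order. It averaged 61.8 in the CD8 gate of anti-PD-1, 46.5 in Ncr1 cells with Cd3e, 29.4 in the Foxp3 gate, 18.6 in Ncr1 cells without Cd3e and 15.2 in the CD4 gate. Of the 41 Ncr1 cells without Cd3e, the 4 richest held 57.0% of Ccl5, and the mean without them was 8.85. There were 15.7 Ccl5 UMIs for each Xcl1 UMI in the CD8 gate, 2.33 in Ncr1 cells with Cd3e and 0.503 in Ncr1 cells without it. When the Foxp3 gate was limited to cells with Cd4 at least as high as Cd8a plus Cd8b1, its Ccl5 level was 16.4 and its Xcl1 level 0.457. The Foxp3 values thus depended on cells that also held CD8 transcripts.

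Ccl4 averaged 12.2 in the CD8 gate, 10.2 in Ncr1 cells with Cd3e, 6.44 in the Foxp3 gate, 5.53 in the CD4 gate and 2.97 in Ncr1 cells without Cd3e. Ccl3 averaged 3.93, 3.19, 1.92, 2.94 and 0.472 in those gates. In Ncr1 cells with Cd3e, 1 of 197 cells held 40.0% of Ccl3, and the mean without it was 1.92. That cell also held 26.4% of the gate's Ccl4, which averaged 7.52 without it. Without the 4 richest cells of each gate, Ccl3 was 1.56 in the CD4 gate and 1.65 in the Foxp3 gate. In Ncr1 cells without Cd3e, 1 cell held 72.1% of Ccl4, and the mean without it was 0.848. In the CD4 gate, Mki67+ cells had 6.90 of Ccl3 against 1.64 in Mki67- cells, and the 4 richest cells held 81.2% of the former, which was 1.31 without them. Ccl4 in these Mki67+ cells was 10.8, and 2.96 without its 4 richest cells.

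**Figure D5:**
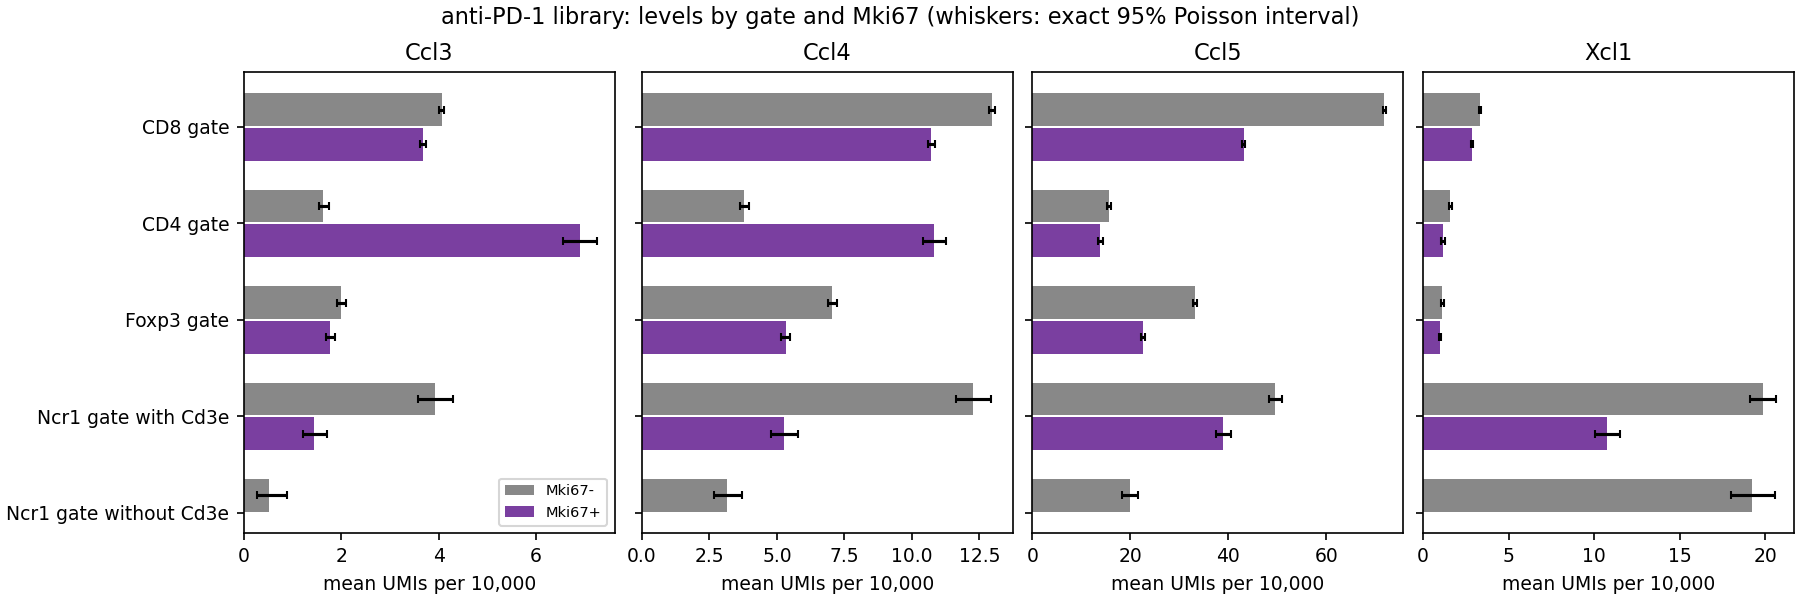
Mean UMIs per 10000 of each chemokine in the anti-PD-1 library by gate, with Mki67- and Mki67+ cells apart. Whiskers are exact 95% Poisson intervals of the summed UMIs, scaled to the mean. Ccl5 is highest in Mki67- CD8-gate cells at 71.8, and Xcl1 is highest in the Ncr1 gates.

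The other libraries gave few cells outside the CD8 gate. Ccl5 in the CD4 gate averaged 16.3 in vehicle, 16.9 in ATT-I, 5.88 in the combination and 15.2 in anti-PD-1. The higher Ccl5 of anti-PD-1 was thus not seen in the plain means of that gate. Without the 4 richest cells of each library's gate they were 7.99, 9.54, 1.87 and 14.3, so this order rested on few cells. The gates held 55, 92, 40 and 1207 cells, so this cut was not equal between libraries. In the Foxp3 gate Ccl5 averaged 7.28, 6.76, 8.54 and 29.4. Ccl4 in the Foxp3 gate averaged 0.202, 1.08, 10.5 and 6.44, but 1 cell held 71.1% of the combination value, which was 3.14 without it. Xcl1 in the vehicle Foxp3 gate averaged 2.47, of which 1 cell held 98.4%. The CD8 gate supplied 84.1%, 80.5%, 87.6% and 78.2% of each library's summed Ccl3 level, and 43.2%, 51.7%, 79.6% and 63.4% of its Xcl1.

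Genes around the 4 chemokines were counted in fixed lists over all cells, with the same 2-fold limit. Xcr1, the receptor for Xcl1, had 1 UMI in vehicle, 4 in ATT-I, 10 in the combination and 58 in anti-PD-1, and did not pass the filter.

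Of the 12 genes of T cell receptor signalling, 11 passed the filter. In anti-PD-1 against vehicle, 0 of the 11 were at least 2-fold higher and 2 were lower, where 1.17% and 17.5% of all genes were, and the list median was -0.47 beside -0.34 over all genes. They were Egr2 at -1.96 and Nr4a3 at -1.30, both early transcription factors, while Nr4a2 stood at 0.26. In the combination against vehicle, 4 were higher, namely Nr4a1 (1.73), Nr4a2 (1.49), Irf4 (1.40) and Nr4a3 (1.26), and 1 was lower, Egr2 (-1.24), where 1.29% and 4.99% of all genes were, with a list median of 0.34 beside -0.11. In ATT-I against vehicle, 0 were higher and 1 was lower, Irf8 at -1.75, where 0.99% and 15.8% of all genes were.

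Of the 5 measured companion cytokines, Ifng was higher in anti-PD-1 than in vehicle at 1.44, while Csf2 (-1.74), Tnf (-1.31) and Tnfsf9 (-1.21) were lower. The shares of all genes past the limits, given above, hold for these lists too: 1.17% higher and 17.5% lower in anti-PD-1, 0.99% and 15.8% in ATT-I, and 1.29% and 4.99% in the combination, so lower calls were common in the whole table for both single agents. ATT-I and the combination had 0 of the 5 past the limit against vehicle. Of the 6 granule genes, Gzma (1.68), Gzmk (1.63) and Nkg7 (1.56) were higher in anti-PD-1, Gzma alone (1.16) was higher in the combination, and in ATT-I Gzma was higher (1.27) and Prf1, which encodes perforin, lower (-1.05). Of the 6 regulators, 0 were higher in any of these comparisons. Prdm1 (-1.59) and Bhlhe40 (-1.07) were lower in anti-PD-1 and Eomes (-1.82) in ATT-I. Of the 16 other chemokine genes, 3 to 5 passed the filter in a comparison. Ccl1 averaged 4.32 in vehicle, 0.938 in ATT-I, 1.86 in the combination and 1.40 in anti-PD-1, an order in which vehicle was highest, unlike that of any of the 4 genes described.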

How the data were processed

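Per the labels' protocols, cells of pooled tumours from 4 arms went through a 10x Genomics library preparation. Cell Ranger, Seurat and genome build mm10 are named, without versions, per the submitters' processing notes. The deposited table holds natural log values per gene and cell. Judged from the values, a cell's UMIs were scaled to a total of 10000, 1 was added, the natural log was taken and a library constant (vehicle 0.247, ATT-I 0.153, combination 0.225, anti-PD-1 0.249) was subtracted, with negative results set to 0. No label gives the reason for the constant. With it added back, 100% of values above 0 lay within 0.02 of a whole UMI. Genes with 1 UMI are lost in 21 vehicle, 0 ATT-I, 37 combination and 37 anti-PD-1 cells, which were kept.

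Libraries summed to 3046028, 2876582, 5150698 and 108508630 UMIs in vehicle, ATT-I, the combination and anti-PD-1. Gates were taken in this order: Foxp3 at 1 UMI or more, Ncr1 at 1 or more without and then with Cd3e, CD8 (Cd8a plus Cd8b1 at 2 or more and above Cd4), CD4 (1 or more and not below Cd8a plus Cd8b1), and the rest. A level is printed for gates of 20 cells or more. Thinning to 3000 UMIs left out 2 vehicle, 20 ATT-I, 5 combination and 486 anti-PD-1 cells. No doublet caller was run and no cell was removed. Poisson intervals treat UMIs as independent. They were computed on summed UMIs and scaled to means over cells, so ratios of summed UMIs can lie outside them. With 1 library per arm no test was possible, and a gene was counted as higher or lower at a 2-fold ratio of means if 10% of the cells of either library had a UMI. Named genes are the 4 members, the fixed lists, and the 5 genes of highest Pearson correlation with each member over the anti-PD-1 CD8 gate, among genes found in 5% of these cells. The members and lists were chosen with earlier results of these data known. Leaving out the single richest cell was chosen after seeing the data, and cells or genes outside the rule that are singled out were chosen after their values were seen. Leaving out 1 cell takes a larger part of the level from a small library than from the anti-PD-1 library. Gene positions come from GENCODE vM21 and RefSeq. 1 gene of the receptor list is not reported here. Marker lists for neutrophils and for basophils or mast cells were not analysed here. The tools were matplotlib 3.10.9, pandas 2.3.3, numpy 2.4.6, scipy 1.17.1 and Python 3.11.15, and the scripts were tested on simulated data.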

Additional observations from a re-analysis of the deposited data

How the results depend on the processing

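No paired analysis was possible because each arm has 1 library. Of 170 counts of chemokines past 2-fold, 149 were kept and 21 moved, and of 48 shares in the richest 5% of cells, 12 were kept and 36 moved by more than their interval. No called ratio changed direction. Over all cells, the number higher in ATT-I than in vehicle (2) was 0 with summed UMIs and 1 without the richest 1% of cells. The number higher in the combination than in anti-PD-1 (1) was 0 without cells over 2 times the median depth, 0 without the single richest cell and 0 in cells with Cd3e. Against ATT-I, the number higher in the combination (2) was 1 with summed UMIs, and the number lower (1) was 0 without cells in which 1 UMI is lost. In the CD8 gate, the number higher in ATT-I than in vehicle (0) was 2 on the deposited values, 2 without cells over 2 times the median depth, 2 without cells that lose 1 UMI, and 1 without the richest 1%, without the single richest cell or in the strict gate. The number higher in the combination than in vehicle (2) was 1 with summed UMIs and 0 in Mki67+ cells. The number higher in the combination than in anti-PD-1 (1) was 2 without cells that lose 1 UMI. Against ATT-I, the number higher (1) was 2 without the richest 1% or the single richest cell and 0 in Mki67+ cells, and the number lower (1) was 0 without cells that lose 1 UMI and 0 in Mki67+ cells. The cause was not tested. After thinning, the richest 5% of cells held 93.9% of Ccl3 in vehicle, 64.7% in anti-PD-1 and 93.3% in ATT-I, 81.8%, 53.1% and 89.9% of Ccl4, 38.2% of Ccl5 in vehicle and 34.6% in ATT-I, and 65.0%, 63.9% and 67.3% of Xcl1 in anti-PD-1, ATT-I and the combination. Within the CD8 gate they held 65.2%, 56.3% and 73.1% of Ccl3 and 40.0%, 45.5% and 70.2% of Ccl4 in vehicle, anti-PD-1 and ATT-I, 22.4%, 21.8%, 29.9% and 32.5% of Ccl5 in vehicle, anti-PD-1, ATT-I and the combination, and 48.0% and 60.7% of Xcl1 in vehicle and the combination. With UMIs not divided by depth they held 92.0%, 65.4% and 74.2% of Ccl3 in vehicle, anti-PD-1 and the combination, 86.5%, 54.0%, 84.4% and 77.9% of Ccl4 and 37.1%, 23.0%, 30.6% and 28.0% of Ccl5 in vehicle, anti-PD-1, ATT-I and the combination, and 68.5% and 74.7% of Xcl1 in anti-PD-1 and ATT-I. With 155 to 297 cells in 3 libraries, levels there rest on few cells and the counting intervals are narrower than the spread between cells.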
